A study of Mus musculus with 2 samples.

Results

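The TRIM family (tripartite motif genes) was described in chromatin-associated RNA of mouse macrophages, as all genes with a protein-coding transcript whose symbol is Trim followed by a number and optional letters. The rule used names only and found 68 genes of 21901 with a protein-coding transcript, and of 55536 annotated genes. The cells were C57BL/6J bone marrow-derived macrophages stimulated with lipid A, a ligand of Toll-like receptor 4, at 100 ng/ml for 75 min, and total RNA depleted of ribosomal RNA was sequenced from their chromatin fraction. The series holds 1 group of 2 libraries, which differ in starting RNA (250 ng for replicate 1, 500 ng for replicate 2). Both carry the same donor label, and sex and age are listed as not collected. The labels do not say whether the cultures came from separate mice, so the SDs below (n = 2) measure only the spread between these libraries, which may be technical. No unstimulated cells and no other fraction were analysed here. The levels are therefore those of stimulated cells and say nothing of induction.

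Annotated genes received 21453617 estimated counts in replicate 1 and 29638814 in replicate 2. All 6 macrophage markers (Csf1r, Spi1, Adgre1, Cd68, Itgam and Mertk) reached 1 TPM (the authors' transcript abundance corrected for length) in both libraries. None of the 26 markers of T cells, B cells, neutrophils, dendritic cells, erythroid cells, skeletal muscle, neurons and germ cells did, and their highest level was 0.59 TPM. Over expressed protein-coding genes the median of the ratio of TPM, replicate 2 over replicate 1, was 1.73. Most expressed TRIM genes also read higher in replicate 2 in TPM. The authors also deposited another transcript table per library, called the second quantification below, and values are from the first unless it is named. In the second quantification the B cell marker Ms4a1 had 1.03 and 1.87 TPM. There Xcr1, Ckm, Cd8a and Mpo passed 1 TPM in replicate 2 alone, with up to 2.37 TPM for Xcr1. In bulk RNA, fewer cells of a type and less RNA per cell cannot be told apart.

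TRIM proteins carry a RING finger, 1 or more B-boxes and a coiled coil, followed by a C-terminal domain that sets the target, most often a PRY-SPRY domain. Many are ubiquitin ligases. In macrophages several members act on the pathways that lipid A engages, where they attach ubiquitin to adaptors and kinases below Toll-like receptors and RNA sensors, and others bind viral capsids or antibody-coated virus. Many TRIM genes are known as interferon-stimulated genes, whose promoters can hold the interferon-stimulated response element (ISRE) read by interferon regulatory and STAT factors.

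Promoter sequence was read for 53 of the 68 members from the RefSeq table of GRCm38.p6, as 300 bases from 250 before the start site. The ISRE core, searched as GAAANNGAAA on both strands, was found in 9 of these 53 genes (17.0%), against 3.99% of 27025 genes with such a window. The 9 were Trim2, Trim5, Trim12a, Trim12c, Trim21, Trim26, Trim30a, Trim30d and Trim34a, and 6 of them lie in a single gene cluster on chromosome 7. The stretches around the match are shown for 8 of them, because these genes include 4 of the 6 highest TRIM levels measured. Each run is 60 bases, 5′ to 3′ on the strand of the gene, with every base of a match in capitals.
Trim5: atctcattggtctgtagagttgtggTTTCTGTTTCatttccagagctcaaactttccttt
Trim12a: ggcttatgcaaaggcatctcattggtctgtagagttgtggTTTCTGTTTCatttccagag
Trim12c: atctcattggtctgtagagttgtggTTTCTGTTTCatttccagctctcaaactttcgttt
Trim30a: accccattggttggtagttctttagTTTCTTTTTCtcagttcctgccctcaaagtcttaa
Trim30d: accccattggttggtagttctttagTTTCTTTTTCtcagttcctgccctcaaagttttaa
Trim34a: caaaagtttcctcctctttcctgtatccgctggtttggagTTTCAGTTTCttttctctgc
Trim21: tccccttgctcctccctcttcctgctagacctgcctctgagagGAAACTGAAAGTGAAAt
Trim26: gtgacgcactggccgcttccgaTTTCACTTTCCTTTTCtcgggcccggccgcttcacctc

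On GRCm38.p6 these runs lie at chr7:104288121-104288180 (minus strand) for Trim5, chr7:104315466-104315525 (minus) for Trim12a, and chr7:104353344-104353403 (minus) for Trim12c. The run of Trim30a lies at chr7:104465195-104465254 (minus), that of Trim30d at chr7:104507856-104507915 (minus) and that of Trim34a at chr7:104244427-104244486 (plus). The run of Trim21 lies at chr7:102565453-102565512 (minus), outside the cluster, and that of Trim26 at chr17:36836964-36837023 (plus). Trim5, Trim12a and Trim12c share the same matched letters with nearly the same flanks, as do Trim30a and Trim30d, so these promoters do not count as separate occurrences. Trim21 and Trim26 each hold 2 matches that overlap by 4 bases. Trim30a also has a match at another start site, in the run chr7:104446096-104446155 (minus), which is not shown. A PU.1 motif, searched as GAGGAAGT on both strands, was in 5 members (Trim2, Trim5, Trim12a, Trim12c and Trim24), against 3.69% of genes, and no PU.1 match overlapped an ISRE match. The NF-kB motif GGGNNTTTCC was in none of the 53 windows, against 1.89% of genes. A match describes letters only and shows no binding, and no match says only that these letters are not in this window.

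Of the 68 TRIM genes, 26 (38.2%) were expressed, taken as 1 TPM or more in both libraries, against 34.8% of all genes with a protein-coding transcript. The share of TRIM genes expressed was thus near the background. The median over all 68 members was 0.375 TPM in replicate 1 and 0.985 in replicate 2 (0.680 ± 0.431, SD, n = 2), against 0.190 ± 0.0707 for all genes with a protein-coding transcript. Among expressed genes the median was 8.90 ± 4.34 TPM for TRIM genes and 8.13 ± 3.27 for all genes with a protein-coding transcript, a gap smaller than either SD. TRIM genes held 23442 counts in replicate 1, or 0.109% of the library (exact Clopper-Pearson 95% interval 0.108% to 0.111%), and 66870 in replicate 2, or 0.226% (0.224% to 0.227%). These intervals cover counting error only. As a part of protein-coding TPM, TRIM genes took 0.240% in replicate 1 and 0.324% in replicate 2.

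A few members held most of the family's RNA. The same 6 genes led in both libraries: Trim30a, Trim25, Trim26, Trim30c, Trim12a and Trim21. Together these 6 held 58.1% of the summed TRIM TPM in replicate 1 and 68.1% in replicate 2. In the second quantification Trim35 and Trim3 stood above Trim21 in replicate 1. All 6 except Trim25, on chromosome 11, and Trim26, on chromosome 17, lie on chromosome 7, which carries 16 TRIM genes, 10 of them expressed.

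**Figure D1:**
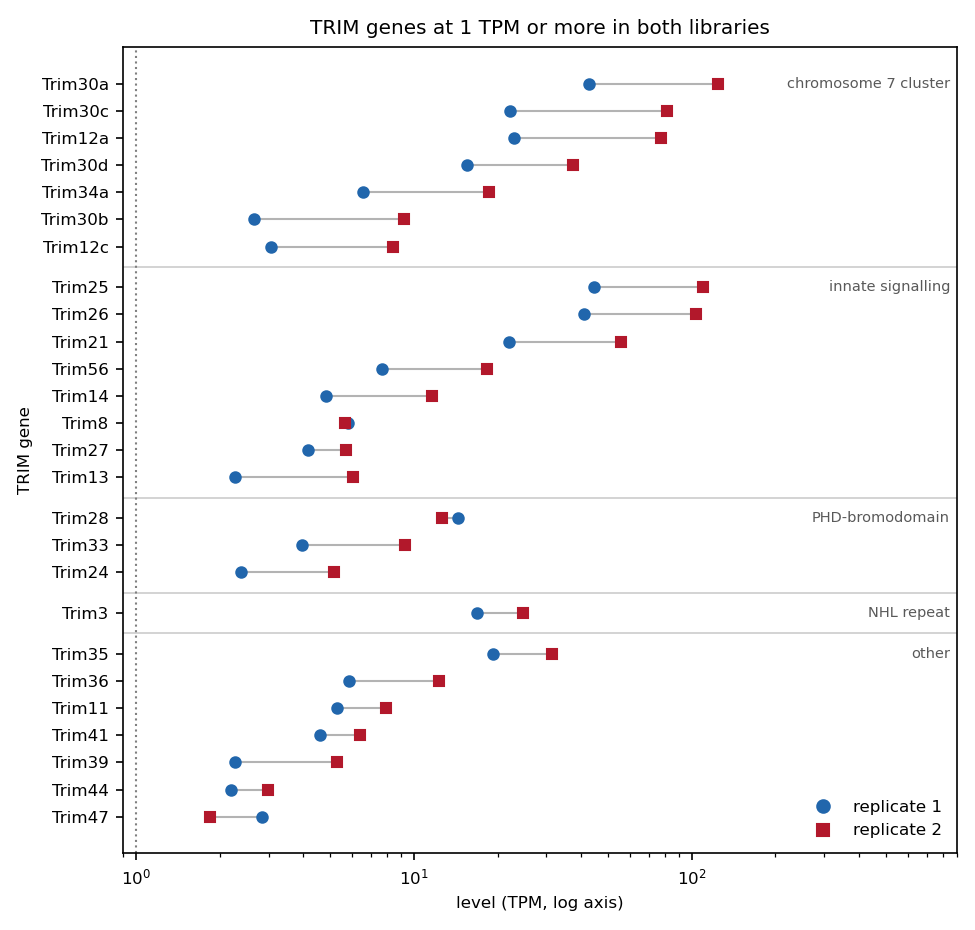
Level of each of the 26 expressed TRIM genes in TPM (log axis), grouped by role; circles are replicate 1, squares replicate 2, and the dotted line is 1 TPM. Replicate 2 is the higher in 23 genes, the exceptions being Trim28, Trim8 and Trim47, and Trim30a spans 42.6 to 124 TPM.

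The Trim5-Trim30-Trim34 cluster occupies chr7:104218793-104507849 on mm10, a stretch of 289 kb in which all 10 protein-coding genes are TRIM genes. It holds the mouse relatives of primate TRIM5, the factor that restricts retroviruses by binding their capsids, and the rodent Trim30 genes. In the order of the plus strand the genes are Trim6, Trim34a, Trim5, Trim12a, Trim34b, Trim12c, Trim30b, Trim30c, Trim30a and Trim30d, 7 of them on the minus strand. The cluster held 34.9% of all TRIM TPM in replicate 1 and 44.5% in replicate 2, and 7 of its 10 genes were expressed.

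Trim30a, known to restrain Toll-like receptor signalling by promoting loss of the adaptors TAB2 and TAB3, had 42.6 TPM in replicate 1 and 124 in replicate 2 (83.4 ± 57.8). It was the highest TRIM gene in replicate 2 and the second in replicate 1. Its paralog Trim30c had 22.2 TPM in replicate 1 and 81.4 in replicate 2 (51.8 ± 41.9). Trim30d had 15.6 and 37.2 TPM (26.4 ± 15.3), and Trim30b had 2.67 and 9.25 TPM (5.96 ± 4.65). Within the Trim30 group the order from Trim30a through Trim30c and Trim30d to Trim30b was the same in both libraries. The ranges of mean ± SD overlapped between neighbours except between Trim30d and Trim30b.

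Trim12a, a relative of TRIM5, was the highest of the Trim5-like genes at 22.9 and 77.4 TPM (50.1 ± 38.6). Trim12c had 3.07 TPM in replicate 1 and 8.44 in replicate 2 (5.76 ± 3.80), and Trim5 itself had 0.96 and 2.74 TPM and missed the threshold in replicate 1. In both libraries Trim12a thus stood above Trim12c, and Trim12c above Trim5. Trim34a had 6.57 and 18.6 TPM (12.6 ± 8.51). Its near copy Trim34b read 0.14 and 0.27 TPM from 6 and 14 counts. Trim6, a ligase that makes free ubiquitin chains used by the kinase IKK-epsilon, lay at the edge of the cluster with 0.51 and 0.99 TPM.

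**Figure D2:**
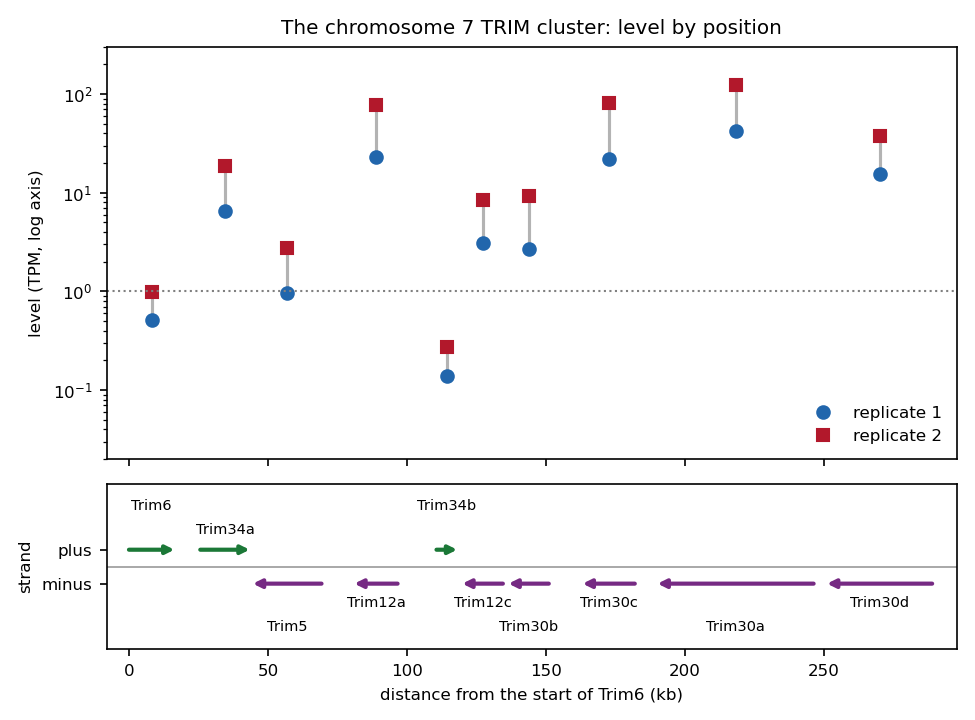
Upper part: TPM (log axis) of the 10 TRIM genes of the chromosome 7 cluster, drawn at the middle of each gene, for replicate 1 (circles) and replicate 2 (squares), with 1 TPM dotted. Lower part: extent and strand of each gene by distance from the start of Trim6 in kb; Trim34b, Trim6 and Trim5 are the 3 genes under 1 TPM in at least 1 library.

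The authors' counting had to divide reads between these copies. Stretches of 50 bases found in another gene's transcripts made up 56.8% of the sequence of Trim34b and 39.8% of Trim34a, all shared with each other. The share was 36.3% for Trim5, 33.0% for Trim12c and 10.4% for Trim12a. It was 7.49% for Trim30d, 5.98% for Trim30a, 0.660% for Trim30c and 0.550% for Trim30b. The values of Trim34a, Trim34b, Trim5 and Trim12c are therefore uncertain, while Trim30c and Trim30b share little sequence with other genes. The level of Trim30b was nevertheless 8.51 and 32.0 TPM in the second quantification, a mean of 20.3 against 5.96. The longest open reading frames of Trim34a and Trim34b were 98.2% identical, those of Trim12c and Trim5 96.6%, and those of Trim30a and Trim30d 90.2%. Trim30a and Trim30c were 82.9% identical, and Trim30a and Trim6 61.5%. The frame of Trim12a spans 894 bases, against 1494 in Trim12c and in Trim5.

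Of 15 genes with known roles in innate sensing and NF-kB signalling, 8 were expressed. Trim25, the ligase known for activating the RNA sensor RIG-I, had 44.3 TPM in replicate 1 and 110 in replicate 2 (77.0 ± 46.3) and was the highest TRIM gene of replicate 1. Trim26, which sits beside the class I genes of the major histocompatibility complex on chromosome 17 and is reported to tune interferon-beta induction, had 41.0 and 103 TPM (72.3 ± 44.2). Trim21, a cytosolic Fc receptor that binds antibody on incoming virus, had 21.9 and 55.5 TPM (38.7 ± 23.7). Trim25 and Trim26 were among the 3 highest TRIM genes in both libraries, and Trim21 was the sixth in both. Trim30a and Trim25 changed places between the libraries in both quantifications, so their order is not resolved. Trim26 was the lowest of the 3 in each library in both quantifications. The 3 means differ by less than 1 SD of any of them. That SD holds the shift in TPM between the libraries and does not measure the order within a library.

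The other expressed genes of this group lay lower. Trim56, linked to antiviral signalling through STING, had 7.67 TPM in replicate 1 and 18.4 in replicate 2. Trim14, an adaptor of the MAVS complex on mitochondria, had 4.83 and 11.6 TPM, but 12.9 and 41.4 in the second quantification. Trim8, which promotes NF-kB activation through the kinase TAK1, had 5.80 and 5.63 TPM and so was nearly level between the libraries in TPM. Trim27, reported to act on the kinase TBK1, had 4.15 and 5.68 TPM. Trim13, a ligase of the endoplasmic reticulum membrane, had 2.27 and 6.05 TPM. Trim23, Trim59, Trim62, Trim65 and Trim68 lay under 1 TPM in at least 1 library. Trim38, known to promote loss of TAB2 and TAB3 as Trim30a does, was barely measured, with 1 and 2 counts. Trim31, a ligase that acts on MAVS, had 0 counts in both libraries, and a floor of 3 counts would be 0.140 CPM in replicate 1 and 0.101 CPM in replicate 2. Of the 5 TRIM genes beside each other on chromosome 17, Trim26 was the sole one expressed: Trim15 had 0.61 and 1.68 TPM, and Trim10, Trim31 and Trim40 had 0 counts.

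The PHD-bromodomain members act as transcriptional cofactors in the nucleus, and 3 of 4 were expressed. Trim28, the co-repressor (KAP1) recruited by KRAB zinc finger proteins, had 14.5 TPM in replicate 1 and 12.7 in replicate 2 (13.6 ± 1.28). Trim33, a partner of SMAD proteins, had 3.95 and 9.33 TPM, and Trim24, a nuclear receptor cofactor, had 2.38 and 5.18 TPM. In both libraries Trim28 stood above the other two, but in the second quantification Trim33 (6.37 and 15.6 TPM) was above Trim28 (13.3 and 14.4) in replicate 2. Trim66, known from testis, had 0.13 and 0.19 TPM.

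Among the NHL-repeat proteins, which bind RNA or cytoskeletal partners, Trim3 had 16.9 and 24.6 TPM (20.8 ± 5.47), although it is best known from brain. Trim2 had 0.35 and 0.88 TPM, Trim32 had 0.15 and 0.60, and Trim71, an embryonic gene, had 0 and 1 count. Trim36, a microtubule-associated member, was the sole expressed gene of the 4 listed neuronal and cytoskeletal COS-box genes, at 5.86 and 12.4 TPM. Trim9, Trim46 and Trim67, which are known from neurons, had at most 4 counts in either library. In the second quantification Trim67 had 197 and 383 counts, Trim9 had 45.5 and 140, and Trim46 had 2 and 6.

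Outside these groups, Trim35, also called Hls5, was the highest at 19.3 and 31.3 TPM (25.3 ± 8.51). Trim11, a PRY-SPRY ligase, had 5.27 and 7.97 TPM, Trim41 had 4.58 and 6.42, and Trim39, a regulator of the anaphase-promoting complex, had 2.28 and 5.31. Trim44, which has no RING finger, had 2.20 and 2.98 TPM, and Trim47 had 2.83 and 1.84. Trim47 and Trim44 lay just inside the threshold of 1 TPM in both libraries. Just outside it, by their replicate 1 values, were Trim5, given above, Trim16 with 0.91 and 1.56 TPM, and Trim17 with 0.80 and 1.90 TPM. Trim23, Trim15 and Trim37 also passed it in replicate 2 alone, and no TRIM gene passed it in replicate 1 alone.

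A further 36 members were under 1 TPM in both libraries, and 15 of these had 0 counts in both. All 4 muscle genes (Trim54, Trim55, Trim63 and Trim72), which tend the sarcomere or repair the membrane of muscle fibres, were among the 15. None of the 2 erythroid genes (Trim10 and Trim58) and none of the 11 genes of germ cells, embryo and other restricted tissues was expressed, and the highest level among those 13 was 0.32 TPM, for Trim43c. In the second quantification Trim43b had 0.528 and 2.00 TPM, all on a coding transcript, and Trim52 is given below. Stretches of 50 bases found in other genes made up 45.8% of Trim43a, 47.7% of Trim43b and 42.1% of Trim43c, so their values are uncertain. In the marker lists, those of skeletal muscle, erythroid cells and germ cells lay at or below 0.47 TPM. The muscle marker Ckm had 0.974 and 2.07 TPM in the second quantification. Chromosomes 8 and 9, with 4 and 6 TRIM genes, held no expressed member.

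The sources used here do not say whether reads were assigned by strand. Of the 26 expressed TRIM genes, 11 overlap a gene on the opposite strand by their annotated spans, introns included. Without strand, reads inside the overlap could not be assigned to either gene of the pair. The same share over all expressed genes was not counted, and how far the overlap affects each level was not tested. The pairs with a protein-coding or well-known partner were Trim41 with Rack1, Trim14 with Nans, Trim28 with Zbtb45 and Trim13 with Dleu2. Trim30a, Trim26, Trim12a, Trim35, Trim34a, Trim36 and Trim27 overlap small or predicted genes only.

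The libraries were then compared gene by gene on counts scaled by TMM (edgeR's trimmed mean of M values), as log2 ratios of replicate 2 over replicate 1 with 0.5 added to each count. The comparison shows how far the 2 libraries of the group differ and bears on no condition. Of 44 TRIM genes whose counts summed to at least 20, 1 was at least 2-fold higher in replicate 2, against 8.96% of all 14442 genes tested, and 3 were at least 2-fold lower, against 4.89%. With 44 genes these shares of 1 and 3 genes are small, and nothing is read from them. The gene higher in replicate 2 was Trim30b, with 230 counts in replicate 1 and 1004 in replicate 2 (log2 ratio 1.10, 2.14-fold, exact 95% counting interval 1.86 to 2.48). Trim30b lost this call in the second quantification.

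The 3 genes lower in replicate 2 were Trim47, Trim8 and Trim28. Trim47 had 117 counts in replicate 1 and 87 in replicate 2, which after scaling was 2.74-fold lower (counting interval 2.06 to 3.66). Trim8 had 423 and 412 counts (2.09-fold lower, 1.82 to 2.40), and Trim28 had 320 and 322 (2.02-fold lower, 1.73 to 2.37). The raw counts of Trim8 and Trim28 were nearly level. With scaling by library size alone none of the 3 was 2-fold lower, and the log2 ratios were -0.89 for Trim47, -0.50 for Trim8 and -0.46 for Trim28. Trim47 also overlaps Trim65 on the same strand and shares 6.58% of its sequence with it. The intervals of Trim30b, Trim8 and Trim28 include 2-fold. Of the 6 macrophage markers, Csf1r (2.15-fold) and Itgam (2.28-fold) were also lower in replicate 2, and their part in these differences was not tested. Just inside the fold lay Trim59, from 9 and 38 counts, with a log2 ratio of 0.99, Trim30c with 0.96 and Trim43c, from 15 and 16 counts, with -0.94.

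**Figure D3:**
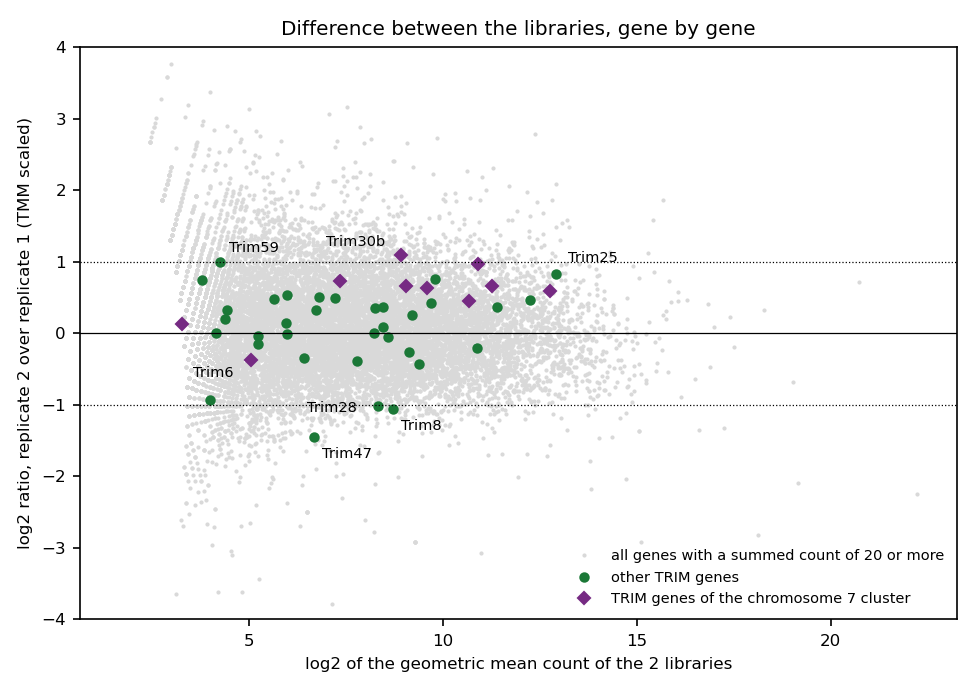
Log2 ratio of TMM-scaled counts, replicate 2 over replicate 1, against the log2 geometric mean count for all 14442 genes tested (grey) and the 44 TRIM genes (diamonds for the chromosome 7 cluster, circles for the others); dotted lines mark 2-fold, and 34 genes, none of them TRIM genes, lie beyond the axis. Of the cluster's 10 genes, 9 lie above 0, and Trim47, Trim8 and Trim28 lie below the lower line.

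The median log2 ratio over the 44 TRIM genes was 0.33 (quartiles -0.08 and 0.55), against 0.05 over all genes tested and -0.04 over protein-coding genes. Of the 44, 30 (68.2%) were above 0, against 52.8% of all genes. In the second quantification the same 44 genes had a median of 0.05, against 0.04 over all genes tested there, and 24 were above 0. The offset of the family as a whole was thus present in the first quantification and not in the second. Scaling by library size alone raised the median of all genes to 0.61 and that of the TRIM genes to 0.89.

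The chromosome 7 cluster had a median log2 ratio of 0.64, from -0.38 for Trim6 to 1.10 for Trim30b, and 9 of its 10 genes were above 0. In the second quantification its median was 0.47 and all 10 genes were above the median of all genes. The cluster's genes share sequence, so they are not separate observations. The 13 innate signalling genes tested had a median of 0.46 with 11 above 0, but in the second quantification a median of 0.21 with 8 above 0, and the 4 PHD-bromodomain genes had a median of -0.07.

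The 9 genes with an ISRE core in the promoter all had ratios above 0, from 0.15 (Trim2) to 0.76 (Trim21), with a median of 0.62. In the second quantification their median was 0.44 and 8 were above 0, the exception being Trim2 at -0.054. The 24 tested TRIM genes whose promoter windows held no such match had a median of 0.16, with 16 above 0, and in the second quantification a median of 0.017, with 12 above 0. Over all tested genes with a promoter window the median was 0.22 for 375 genes with the core and -0.04 for 8907 without it. Of the members with a window, 7 of 9 with the core were expressed and 12 of 44 without it. Over all genes with a protein-coding transcript and a window, 37.9% of 665 with the core and 37.0% of 15870 without it were expressed. Since several of the 9 promoters share their sequence, nothing particular to TRIM genes is read from these counts. Trim25, Trim30c, Trim30b and Trim59, each with a higher log2 ratio than Trim21, had no ISRE core in their windows. In the second quantification Trim25 (0.56) was below Trim21 (0.66), while Trim30c, Trim30b and Trim59 stayed above it.

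Chromatin RNA holds transcripts that are not yet spliced, and the annotation lists some partly spliced forms as retained intron transcripts. Transcripts without a coding type held 30.3% ± 0.864 (SD, n = 2) of TRIM TPM, against 50.5% ± 1.55 over all genes with a protein-coding transcript. Retained intron transcripts made up most of this, at 22.1% ± 0.808 against 37.8% ± 1.82. The family's share was lower than that of all such genes in each library, by more than the spread between libraries. It was also lower when estimated counts were used (12.8% against 24.1%) and in the second quantification (22.6% against 32.9%). The share is weighted by TPM, so the highest genes weigh most in it. Of the 6 highest, Trim25 and Trim30c have no retained intron transcript. The mean shares of the others were 10.5% in Trim30a, 32.5% in Trim12a, 38.2% in Trim26 and 80.0% in Trim21. Fewer TRIM genes have such a transcript in the annotation: 12 of the 26 expressed members (46.2%), against 68.7% of expressed protein-coding genes. Among genes that have one, the median share was 41.6% in TRIM genes and 45.9% over 5234 genes.

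The 12 genes differed widely. Trim21 had 84.4% of its TPM on retained intron transcripts in replicate 1 and 75.5% in replicate 2, divided over 3 such transcripts. Trim28 had 77.2% and 69.2% over 8 of them, and its coding transcript Trim28-201 had 9.76% and 11.7%. Trim3 had 63.6% and 68.6%. By estimated counts, however, the mean shares of these 3 genes were 40.0% for Trim21, 45.7% for Trim28 and 27.1% for Trim3. Trim27 had 50.8% and 54.6%, Trim24 had 43.0% and 50.2%, and Trim33 had 40.4% and 49.7%. By TPM, 5 genes had more on retained intron than on coding forms in both libraries: Trim21, Trim28, Trim3, Trim27 and Trim26. Counts gave lower mean shares for Trim27 (26.4%), Trim24 (29.9%) and Trim33 (7.65%) too.

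At the low end, Trim30a had 8.88% and 12.1% of its TPM on a retained intron transcript, and 86.2% or more on the coding transcript Trim30a-201. By counts that retained intron share was only 0.316% on average, while the second quantification gave 25.7%; the cause was not tested. Trim30b had 32.0% in replicate 1 and 10.4% in replicate 2. Trim35 had 18.8% and 26.6%, Trim39 had 23.6% and 32.8%, and Trim12a had 33.9% and 31.2%. Trim26 had 33.3% and 43.0% on retained intron forms, and a further 35.2% and 47.9% on Trim26-209, a processed transcript with no reading frame annotated. Coding transcripts of Trim26 therefore held 31.4% of its TPM in replicate 1 and 9.11% in replicate 2, and 42.5% and 26.1% in the second quantification.

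Coding isoforms also differed between the libraries. Trim25-202 held 54.5% of the TPM of Trim25 in replicate 1 and 28.6% in replicate 2, with nearly all the rest on Trim25-203. In the second quantification Trim25-202 was above Trim25-203 in both libraries, at 42.7 against 16.6 TPM and 99.4 against 65.9 TPM. The leading isoform of Trim25 was therefore not settled by these tables.

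**Figure D4:**
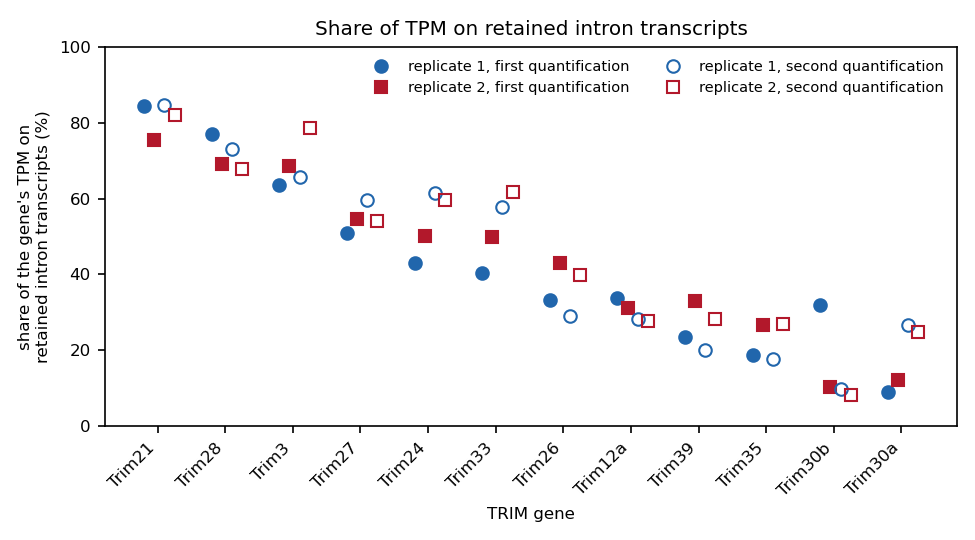
Percent of each gene's TPM on retained intron transcripts for the 12 expressed TRIM genes that have one; filled symbols are the first quantification, open symbols the second, circles replicate 1 and squares replicate 2. Trim21, Trim28 and Trim3 lie above 60% in all 4 values, and Trim30a shows 8.88% and 12.1% in the first against 26.5% and 24.8% in the second.

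The authors' second quantification assigned reads to transcripts from an index. By it, 33 of the 68 TRIM genes reached 1 TPM in both libraries, against 45.2% of all genes with a protein-coding transcript, and these 33 included all 26 of the first. The 7 added were Trim2, Trim5, Trim6, Trim37, Trim52, Trim63 and Trim65. Trim6 read 3.78 and 11.6 TPM, in place of 0.51 and 0.99. Trim52, with 0 counts in the first, had 4.39 and 14.2 TPM in the second, nearly all on Trim52-202, a processed transcript. Trim63, the muscle ligase MuRF1, went from 0 counts to 2.30 and 5.18 TPM, all on transcripts of the types retained intron and processed transcript, with its coding transcripts at 0. The coding transcripts of Trim52 and Trim63 thus read 0.0708 TPM or less in both tables. The same 3 genes led in the second quantification: Trim30a had 55.7 and 167 TPM, Trim25 had 59.3 and 165, and Trim26 had 48.2 and 118. Of the 26 expressed genes, 8 had a mean TPM that differed by over 1.5 times between the quantifications, all higher in the second: Trim3, Trim12c, Trim14, Trim27, Trim30b, Trim33, Trim41 and Trim44. For Trim41 the second gave 10.7 and 16.6 TPM, and for Trim44 4.07 and 7.80.

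**Figure D5:**
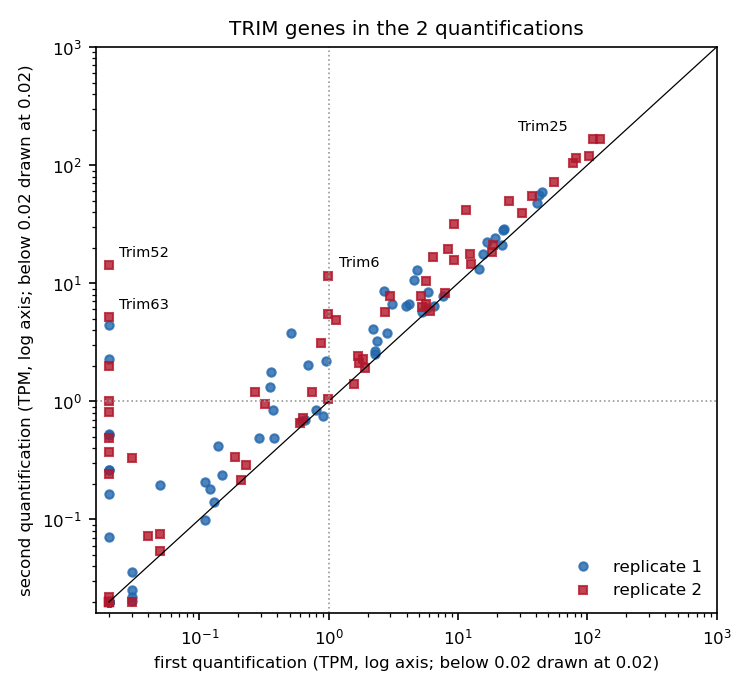
TPM of each TRIM gene in the second quantification against the first (log axes, values below 0.02 drawn at 0.02) for replicate 1 (circles) and replicate 2 (squares); the line marks equal values and dotted lines 1 TPM. Trim52 and Trim63, at 0 in the first, reach 14.2 and 5.18 TPM in the second, and most other genes lie on or above the line.

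Genes that work with TRIM proteins were also read from fixed lists. All 16 innate sensing partners found, among them Tab2, Tab3, Traf6, Mavs and the RIG-I gene Ddx58, were expressed. Of these, 2 were at least 2-fold higher in replicate 2, against 8.96% of all genes tested. They were the RNA sensor gene Ifih1 (2.99-fold) and Irf7 (2.35-fold). Tab2, the target of Trim30a and Trim38, had 41.2 and 103 TPM, close to the level of Trim30a, and Tab3 had 3.35 and 5.37. Ddx58, the target of Trim25, had 19.6 and 63.1 TPM, below Trim25 in each library. Of 11 partners of Trim28 and Trim33, 10 were expressed, among them Setdb1, the histone methyltransferase recruited by Trim28, with 3.11 and 4.34 TPM. None of the 11 passed 2-fold in either direction, against 8.96% of all genes tested higher and 4.89% lower. With lists of 16 and 11 genes, nothing is read from these counts. Of 8 genes that encode TRIM proteins under other names, 4 were expressed: Mefv, which encodes pyrin, with 9.41 and 13.6, Pml with 4.35 and 11.6, Rnf135, a ligase for RIG-I, with 4.74 and 8.23, and Mid1. Mid1, a microtubule-bound ligase, had 223 and 226 TPM, above every gene with a Trim symbol in each library, and 1371 and 1287 TPM in the second quantification. After scaling it was 2.08-fold lower in replicate 2. In the second quantification Rnf135 had 24.5 and 68.9 TPM and Pml had 7.91 and 38.7, while Mefv had 9.85 and 15.1. Triml1, with 0 counts in the first, had 2.15 and 4.75 TPM there, so the count of 4 depends on the quantification.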

How the data were processed

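Members, lists and motifs were chosen with earlier results of these data known. For each library the authors deposited estimated (expected) counts, TPM and FPKM per gene and per transcript. These come from reads aligned to the transcriptome (mm10, GENCODE M21), per the deposited text, which names no tool or version. The authors' second quantification gives estimated counts and TPM per transcript, which were summed per gene. Rows that name no annotated gene (0.409% of counts in replicate 1, 0.277% in replicate 2) were left out. TPM is relative to all annotated sequence and keeps no depth.

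Levels were described per library with mean ± SD and no test, since there is 1 group. Expressed meant 1 TPM or more in both. Ratios used rounded counts, TMM factors of 0.824 and 1.21 (edgeR 4.0.16, R 4.3.3), a prior count of 0.5, a summed count of 20 or more and 2-fold. On data simulated for 14433 genes, 100 of 100 genes raised 4-fold and 100 of 100 lowered 4-fold were recovered. A 4-fold change lies far beyond the 2-fold cut, and no TRIM gene called with these settings reached it. The simulation therefore checks only that the steps ran, and does not measure how reliable calls near 2-fold are. Values were given for each member expressed in both libraries, each past 2-fold, and those next to the TPM threshold. Shared sequence was counted in windows of 50 bases, and coding identity came from aligning longest open reading frames (Biopython 1.88). No molecular identifiers were used, so intervals cover counting error only. Promoters came from RefSeq GRCm38.p6, with no row for 15 members. Alternatives were another quantification, threshold, scaling (including DESeq2 1.42.0 size factors) or count filter, and each library alone; TPM rescaled over protein-coding genes and the scalings of the chromosome 7 cluster were added after seeing the data.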

Additional observations from a re-analysis of the deposited data

How the results depend on the processing

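The number of expressed TRIM genes stayed within 25 to 33 under the alternatives run, and from either library alone it was 26 or 32. The median TPM of TRIM genes was 0.375 or 0.985 from a single library, 1.52 in the second quantification and 3.31 when TPM was rescaled over protein-coding genes. Genes 2-fold higher in replicate 2 numbered 17 of 44 with library size alone, against 28.0% of all genes then. With DESeq2 size factors they numbered 2 of 44, against 9.56% of all genes. They numbered 2 of 53 without a filter on low counts (13.1% of all genes) and 0 of 53 in the second quantification (5.51%). Genes 2-fold lower numbered 0 of 44 with library size alone (1.07% of all genes) and 7 of 53 without a filter (14.7%). Trim28 lost the call with DESeq2 size factors. Nothing about the family is read from these counts. The median log2 ratio was 0.89 with library size alone and 0.065 in the second quantification (53 genes), and single genes changed sign in 10 of 44 cases under each of these 2 settings. The noncoding share of TRIM TPM was 17.7% by counts and 33.7% in the second quantification, and 29.7% to 30.9% from a single library. Levels of 9 of the 26 expressed genes moved by 1 SD or more in the second quantification. Retained intron shares moved by more than 1 SD in 11 of 12 genes by counts and in 6 of 12 in the second quantification; the cause was not tested. No paired analysis was possible because the series has a single group. Genes under about 20 counts have no usable ratio at this depth.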
